A study of Homo sapiens with 4 samples.

Results

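The 37 genes described here encode lysosomal enzymes, proteins of the lysosomal membrane, and the receptors and cofactors that serve them. They were fixed by gene symbol, and all 37 symbols were found, once each, among the 18276 genes of the read-count table. By role they comprised 17 hydrolases, 7 cathepsins and other proteases, 7 membrane proteins, 3 sorting receptors and 3 soluble cofactors. RNA bound by an SF3B6 antibody was set against total input RNA in MDA-MB-231, a human triple-negative breast cancer cell line. There were 2 SF3B6 IP libraries, SF3B6 IP 1 and 2, and 2 input libraries, input 1 and 2. All cells had received a single irradiation of 400 mJ/cm2 before lysis, the lysate was digested with micrococcal nuclease, and 5 µg of antibody went into each pull-down. An IgG pull-down that the protocol names was not analysed here.

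Lysosomes break down proteins, glycans and lipids with acid hydrolases. Most of these enzymes are made in the endoplasmic reticulum, tagged with mannose 6-phosphate in the Golgi and carried onward by receptors that recognise the tag, while membrane proteins line the organelle, acidify it and export its products. Cathepsins are also known to be secreted by invasive breast cancer cells. SF3B6 belongs to SF3b, the part of the U2 particle that recognises the intron branch point, and the study asked which transcripts it binds.

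The libraries were small, with 55492 and 30431 gene counts in SF3B6 IP 1 and 2, against 317190 and 519836 in input 1 and 2. A count of 0 therefore allowed up to 54.1 and 98.6 CPM, that is counts in each 1000000 of the library, for the IP libraries and 9.46 and 5.77 CPM for the inputs, by a limit of 3 counts. Every IP library held fewer counts than any input library, so an effect of depth cannot be told apart from one of the pull-down. With input RNA as the comparison, background binding to beads or antibody is part of the IP values, and a lower share in IP cannot be told apart from dilution by RNAs that were enriched. Of the genes that define the cell line, AXL, EGFR, VIM, MSN, CD44 and CAV1 had from 132 to 2408 input counts in sum. CDH1, an epithelial gene that these cells lack, had 4, and the marker genes of other cell types that were listed (LYZ, PECAM1 and DCN) had 1 or 2 input counts each. ESR1, PGR, PTPRC, HBB and LUM were also listed but were not among the genes of the read-count table.

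Many lysosomal genes share a promoter element recognised by TFEB, the master regulator of lysosome formation, whose core is the palindrome TCACGTGA. The element was searched as the one feature of these genes that can be read from RefSeq promoters (GRCh38.p14, from 250 bases before to 50 after the start). It reads the same on both strands and contains the shorter E-box CACGTG. Of the 37 genes 28 had a promoter in that table. The element was held by 5 of the 28 (17.9%), by 7 of 46 other lysosomal genes (15.2%) and by 321 of 27305 genes overall (1.18%). A window of 30 bases that lies before the start and holds 1 copy is shown for each of these 5, with the element in capitals. In the whole promoter IGF2R held 3 copies, LAMP1, GAA and MCOLN1 held 2 each and CTSA held 1. The assay measures RNA, not promoters, so the windows are background to the genes and not a result of the pull-down.
IGF2R, chr6:159969042-159969071, plus strand: ccgggcggctgTCACGTGAcgcggttccgg
LAMP1, chr13:113297199-113297228, plus strand: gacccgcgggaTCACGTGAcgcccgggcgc
GAA, chr17:80101538-80101567, plus strand: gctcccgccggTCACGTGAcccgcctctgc
MCOLN1, chr19:7522594-7522623, plus strand: ctctgggctaccgggTCACGTGAccgaggc
CTSA, chr20:45891298-45891327, plus strand: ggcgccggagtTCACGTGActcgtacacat

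Transcripts of the 37 genes made up a smaller part of the SF3B6 IP libraries than of the inputs. They held 318 of 55492 counts in SF3B6 IP 1 (0.573%, Wilson 95% interval 0.514 to 0.639) and 171 of 30431 in SF3B6 IP 2 (0.562%, 0.484 to 0.652). In input 1 they held 2634 counts (0.830%, 0.799 to 0.863) and in input 2 they held 4672 (0.899%, 0.873 to 0.925). The share averaged 0.567% ± 0.00787 in IP and 0.865% ± 0.0483 in input (SD, n = 2 libraries each), a ratio of 0.656. Intervals of the IP libraries did not overlap those of the inputs, but they cover counting error only, since no molecular identifiers are described and reads need not be independent molecules. The size of this gap depended on the denominator, and the reason was not tested. Nuclear protein-coding genes held 70.0% and 59.3% of counts in SF3B6 IP 1 and 2, against 77.7% and 82.5% in input 1 and 2. Counted only against nuclear protein-coding genes, the 37 genes held 0.818% and 0.947% in the IP libraries, against 1.07% and 1.09% in the inputs, a ratio of 0.819.

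**Figure D1:**
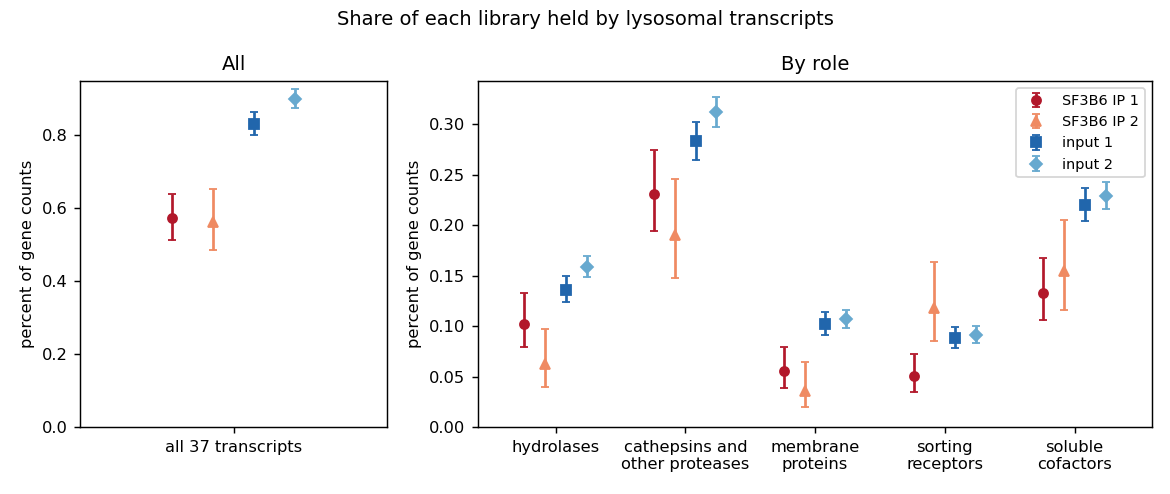
Percent of each library's gene counts held by all 37 lysosomal transcripts (left) and by each role (right), with Wilson 95% intervals; each point is 1 library. Both IP libraries lie below both inputs for all 37 together and for every role except the sorting receptors, where SF3B6 IP 2 lies above both inputs.

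The same order held within each role but one. Hydrolases held 0.103% and 0.0624% of counts in SF3B6 IP 1 and 2, against 0.137% and 0.159% in input 1 and 2. Proteases held 0.231% and 0.191% in IP, against 0.283% and 0.312% in input. Membrane proteins held 0.0559% and 0.0361% in IP, against 0.102% and 0.107% in input, and their ratio of mean shares, 0.440, was the lowest of the 5 roles. Soluble cofactors held 0.133% and 0.154% in IP, against 0.220% and 0.229% in input. The receptors held 0.0505% and 0.118% in IP, against 0.0886% and 0.0916% in input, and so lay on both sides of the inputs. No test was made of these shares, since the genes were chosen with earlier results known.

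Each gene was put to the quasi-likelihood test of edgeR after TMM normalization, with Benjamini-Hochberg adjustment over all 3668 genes that passed its filter on low counts. Of the 37 genes 25 passed, all of them through their counts in the inputs, which alone sufficed. A gene with high input counts thus entered whatever its IP counts were, and the counts below describe 25 genes, not all 37. A log2 fold change below 0 means lower in IP and is given with its standard error (SE), and normalised CPM are CPM of the tested genes' total after TMM. Of the 25 genes 3 were lower in IP, namely MAN2B1, CTSB and PSAP, where 1.36% of all tested genes were called lower. None was higher, where 2.7% of all tested genes were. At an unadjusted edgeR p under 0.05, 6 were lower and 0 higher, against 7.72% and 7.93% of all tested genes, and DESeq2 called none in either direction and gave no adjusted p for 5. Both IP libraries lay below both inputs in 14 of the 25 and above both in 0, where 28.5% and 20.9% of all tested genes did so. The median log2 fold change of the 25 was -0.58, also with MAN2B1 at its bound, beside -0.06 over all tested genes and -0.08 over the 3470 nuclear protein-coding genes among them. The 25 had a median of 8 IP counts and 143 input counts, beside 8 and 86 over all tested genes. The gap between the medians depended on the filter and the method. In edgeR with no filter on low counts the medians were -1.18 for all 37 genes and -1.23 for all genes. The gap then had the opposite sign. In limma on log2(FPKM + 1) with no filter the medians were -1.39 and -0.36.

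**Figure D2:**
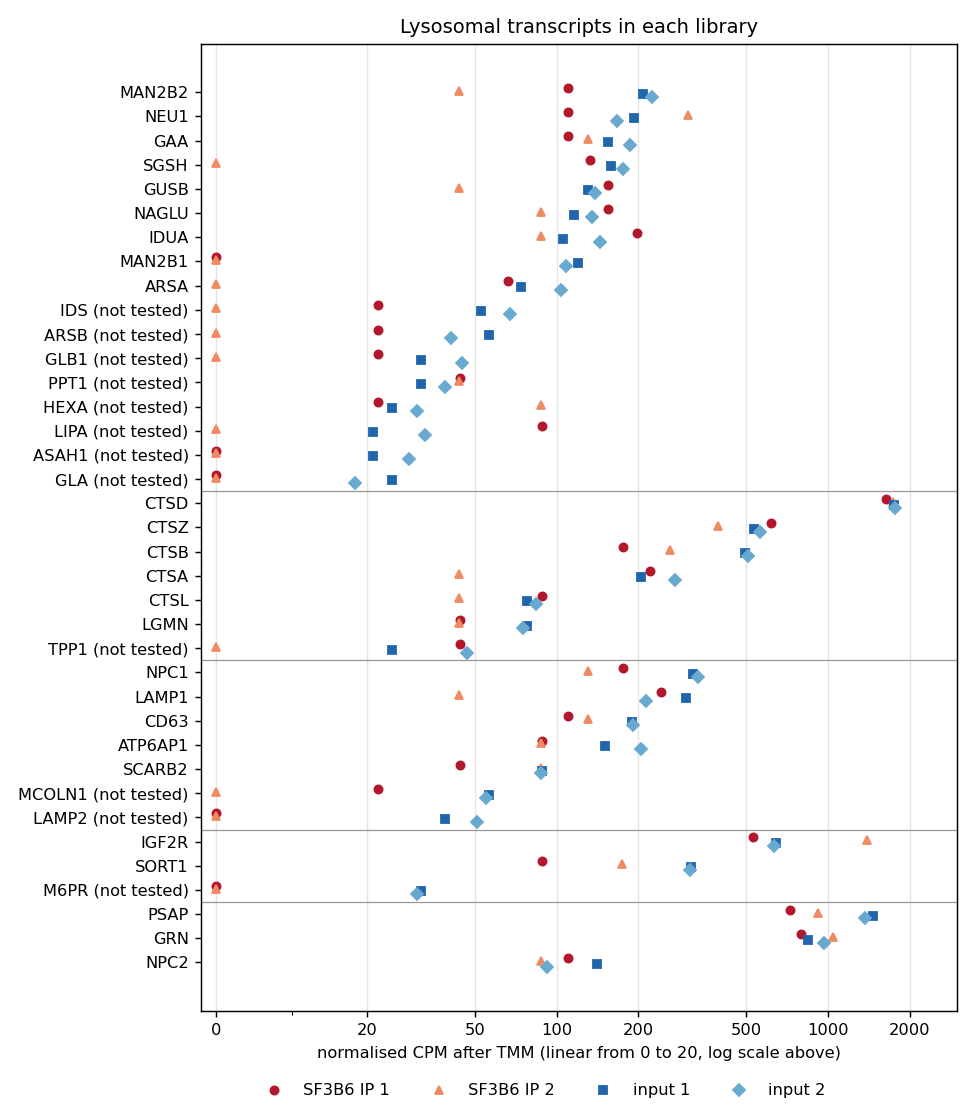
Normalised CPM of the 37 lysosomal transcripts in each of the 4 libraries, grouped by role from top to bottom (hydrolases, proteases, membrane proteins, sorting receptors, soluble cofactors) and ordered by input level; the axis is linear up to 20 and logarithmic above. MAN2B1, ASAH1, GLA, LAMP2 and M6PR lie at 0 in both IP libraries, and IGF2R has its 2 IP libraries on either side of the inputs.

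MAN2B1, the alpha-mannosidase that trims mannose from glycoprotein glycans (chromosome 19, 12646512 to 12666742, minus strand), was not detected in IP. It had 0 counts in each of SF3B6 IP 1 and 2, against 34 and 53 counts in input 1 and 2. At the inputs' rate 7.68 IP counts would have fallen on it. With 3 counts over the IP group as the limit, the bound was 2.56-fold lower in IP, which leaves out counting error in the inputs. The exact interval of its pooled ratio ran from 0 to 0.491 and covers counting error only. MAN2B1 was called lower (edgeR adjusted p = 0.0289), with an input level of 114 ± 8.20 normalised CPM (SD, n = 2). With 0 IP counts it entered the test through its input counts alone, so it could not have come out higher. DESeq2 gave MAN2B1 no adjusted p and so no call. The adjusted p ran from 0.0002 to 0.392 over the 11 alternatives that gave one. The call was lost without SF3B6 IP 1 (0.392) and in limma on log2(FPKM + 1) with no filter (0.14), and without input 1 or input 2 MAN2B1 had too few counts to be tested. Its relative MAN2B2, a second alpha-mannosidase (chromosome 4, 6575189 to 6623362), had 5 and 1 counts in the IP pair beside 59 and 110 in the input pair. Both IP libraries of MAN2B2, at 110 and 43.6 normalised CPM, were below the inputs at 208 and 224, but its log2 fold change of -1.31 ± 0.52 did not pass (edgeR adjusted p = 0.182).

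The other tested hydrolases did not pass, and their log2 fold changes lay on both sides of 0. ARSA, which removes sulfate from sulfatide, had 3 and 0 counts in the IP pair beside 21 and 51 in the input pair. The pooled ratio of ARSA was 0.472 with an exact interval from 0.0952 to 1.44 (log2 fold change -1.07 ± 0.82, edgeR adjusted p = 0.565). SGSH, the sulfamidase of heparan sulfate breakdown, had 6 and 0 counts in the IP pair beside 45 and 86 in the input pair (log2 fold change -0.94 ± 0.59, edgeR adjusted p = 0.451). In both genes SF3B6 IP 2 had no count and SF3B6 IP 1 lay just under the inputs. GAA, the glycogen-degrading alpha-glucosidase, had 110 and 131 normalised CPM in IP, against 155 and 185 in input (-0.57 ± 0.50, edgeR adjusted p = 0.640). GUSB, beta-glucuronidase, had 7 and 1 counts in the IP pair beside 37 and 68 in the input pair (-0.21 ± 0.54, edgeR adjusted p = 0.919). NEU1, the sialidase, had 110 and 305 normalised CPM in IP, against 194 and 167 in input, so its IP libraries lay on either side of the inputs (-0.01 ± 0.46, edgeR adjusted p = 0.995). IDUA and NAGLU, which act in turn on heparan sulfate, had the 2 positive log2 fold changes among hydrolases, 0.31 ± 0.50 and 0.04 ± 0.52, each far from the threshold (edgeR adjusted p = 0.856 and 0.981). IDUA had 9 and 2 counts in the IP pair beside 30 and 71 in the input pair, and its gene span overlaps SLC26A1, which had 3 and 0 counts in the IP pair beside 16 and 17 in the input pair. How reads of overlapping genes were assigned is not known.

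Another 8 hydrolases had too few counts to be tested, with 16 to 48 input counts in sum. GLA, the alpha-galactosidase, and ASAH1, acid ceramidase, had 0 counts in both IP libraries, but at the inputs' rate only 1.41 and 1.76 counts would have fallen there, so no difference was detectable. IDS, which removes sulfate from iduronate, had 1 and 0 counts in the IP pair beside 15 and 33 in the input pair, a ratio of 0.236 with an interval from 0.00586 to 1.38. GLB1 (beta-galactosidase), ARSB (a sulfatase of dermatan sulfate) and PPT1 (which removes palmitate from proteins) had 1, 1 and 3 IP counts in sum, against 31, 36 and 28 in input. HEXA, a subunit of beta-hexosaminidase, and LIPA, acid lipase, had 3 and 4, against 22 and 22. The pooled ratio of LIPA was 2.06 with an interval from 0.516 to 6.07. Intervals of all 8 included 1. LIPA overlaps IFIT genes, GLB1 overlaps TMPPE and PPT1 overlaps CAP1, all with counts of their own.

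CTSB, a cysteine protease and the cathepsin most often studied in tumour invasion, was lower in IP. It had 8 and 6 counts in the IP pair beside 140 and 248 in the input pair. Its normalised level was 219 ± 60.3 CPM in IP and 499 ± 9.16 CPM in input (SD, n = 2 each). Both IP libraries, at 176 and 261 CPM, lay far below the inputs at 493 and 506. The log2 fold change was -1.29 ± 0.33 (edgeR adjusted p = 0.0197, from 0.000154 to 0.48 over 14 alternatives). The call was lost when SF3B6 IP 1 (adjusted p = 0.48), input 1 (0.111) or input 2 (0.23) was left out. It was also lost in DESeq2 (0.244), with at least 20 counts required in 2 libraries (0.0606) and in limma on log2(FPKM + 1) with no filter (0.14).

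CTSD, the aspartic protease, was the most counted of the 37 genes and showed no difference by the test. It had 74 and 40 counts in the IP pair beside 497 and 864 in the input pair. That was 1686 ± 80.3 normalised CPM in IP and 1755 ± 8.86 in input (SD, n = 2 each), a log2 fold change of -0.07 ± 0.20 (edgeR adjusted p = 0.931), although both IP libraries lay slightly below both inputs. CTSZ, a carboxypeptidase of the same family as CTSB, had 28 and 9 counts in the IP pair beside 152 and 275 in the input pair (-0.03 ± 0.25, edgeR adjusted p = 0.977). For these well-counted genes the pooled count ratio was 0.949 for CTSD (exact interval 0.777 to 1.15) and 0.982 for CTSZ (0.682 to 1.38), beside 0.409 for CTSB (0.221 to 0.695). The interval of CTSB overlapped that of CTSZ and not that of CTSD, but these intervals cover counting error only, and the IP replicates varied by more than that (a chi-square statistic of 3.54 per degree of freedom). The differences between these genes were not tested. CTSA, which protects beta-galactosidase and sialidase, had 220 and 43.6 normalised CPM in IP, against 204 and 273 in input, with 10 counts in SF3B6 IP 1 and 1 in SF3B6 IP 2. CTSL, a cysteine endopeptidase, had 4 and 1 counts in the IP pair beside 22 and 41 in the input pair. LGMN, which cleaves after asparagine and processes other cathepsins, had 2 and 1, against 22 and 37, with a ratio of 0.576 and an interval from 0.116 to 1.77. Log2 fold changes of CTSA, LGMN and CTSL ran from -0.79 to -0.15 and did not pass (lowest edgeR adjusted p = 0.548). TPP1, a tripeptidyl peptidase, had 2 and 0 counts in the IP pair beside 7 and 23 in the input pair, and was not tested.

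**Figure D3:**
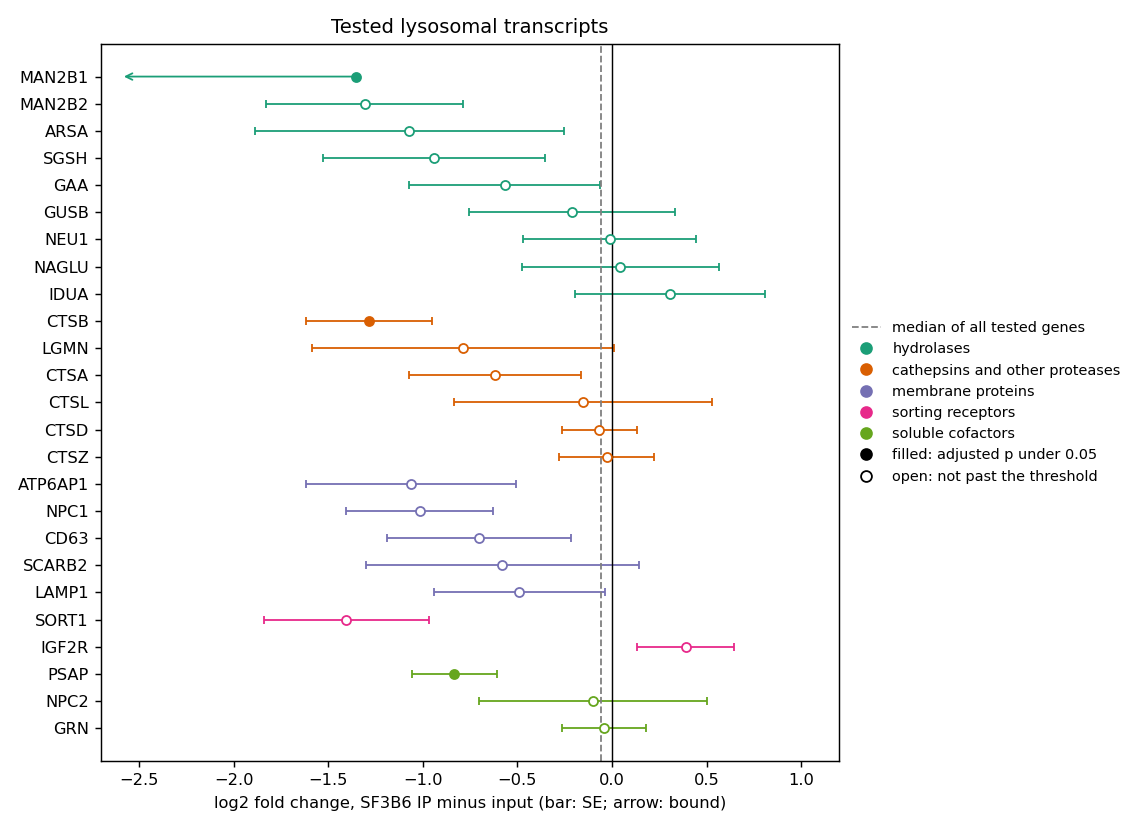
Log2 fold change (SF3B6 IP minus input) of the 25 tested lysosomal transcripts with its SE, grouped by role; filled points passed an adjusted p of 0.05, and the arrow marks MAN2B1 as a bound because it had 0 IP counts. Only IGF2R, IDUA and NAGLU lie right of 0, and none of them passed.

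All 5 tested membrane proteins had log2 fold changes below 0, where 53.4% of all tested genes did, and none passed. NPC1, which exports cholesterol from the lysosome (chromosome 18, 23506184 to 23586506), had 8 and 3 counts in the IP pair beside 90 and 163 in the input pair. Both IP libraries of NPC1, at 176 and 131 normalised CPM, were below the inputs at 317 and 332 (log2 fold change -1.02 ± 0.39, edgeR adjusted p = 0.159). ATP6AP1, an accessory subunit of the proton pump, had 88.1 and 87.1 normalised CPM in IP, against 151 and 204 in input (-1.06 ± 0.55, edgeR adjusted p = 0.344). CD63, a tetraspanin of late endosomes, had 110 and 131 in IP, against 190 and 192 in input (-0.70 ± 0.49, edgeR adjusted p = 0.511). In these 3 genes the groups did not overlap. NPC1 shares part of its span with RMC1, which had 0 counts in both IP libraries beside 7 and 6 in the input pair. LAMP1, the abundant glycoprotein that lines the membrane, had 11 and 1 counts in the IP pair beside 85 and 105 in the input pair, and overlapped the inputs through SF3B6 IP 1. SCARB2, the receptor that carries glucocerebrosidase, had 2 and 2 counts in the IP pair beside 25 and 43 in the input pair. Log2 fold changes of LAMP1 and SCARB2 were -0.49 ± 0.45 and -0.58 ± 0.72 (edgeR adjusted p = 0.656 and 0.790). LAMP2, the relative of LAMP1 that also serves chaperone-mediated autophagy, had 0 and 0 counts in the IP pair beside 11 and 25 in the input pair, where 3.18 counts would have fallen at the inputs' rate, and MCOLN1, a calcium channel, had 1 and 0, against 16 and 27. Neither passed the count filter of edgeR, and their ratios had upper limits of 1.22 and 1.55. On log2(FPKM + 1) with a filter limma called MCOLN1 lower (adjusted p = 0.0153), along with 2134 of all 5263 genes in that fit.

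None of the receptors that bring cargo to the lysosome passed the test, and the 2 tested ones had log2 fold changes of opposite sign. SORT1, sortilin, which binds progranulin and prosaposin (chromosome 1, 109309575 to 109397918), had 4 and 4 counts in the IP pair beside 89 and 152 in the input pair. Its levels of 88.1 and 174 normalised CPM in IP were below the inputs at 313 and 310, but its log2 fold change of -1.41 ± 0.44 narrowly missed the threshold (edgeR adjusted p = 0.0629). It passed in 7 of 14 alternatives, with an adjusted p from 0.000482 to 0.616. IGF2R, the large mannose 6-phosphate receptor (chromosome 6, 159969082 to 160111504), had 24 and 32 counts in the IP pair beside 183 and 309 in the input pair. That was 528 normalised CPM in SF3B6 IP 1 and 1394 in SF3B6 IP 2, against 644 and 630 in the inputs, so the IP libraries stood on either side of the inputs. Its log2 fold change of 0.39 ± 0.26, the highest of the 25, did not pass (edgeR adjusted p = 0.483) and was -0.36 without SF3B6 IP 2. M6PR, the small mannose 6-phosphate receptor, had 0 and 0 counts in the IP pair beside 9 and 15 in the input pair, where 2.12 would have fallen at the inputs' rate. It did not pass the count filter of edgeR, and the exact interval of its pooled ratio ran from 0 to 1.88. On the FPKM values with a filter, limma called M6PR lower (adjusted p = 0.00484 on log2(FPKM + 1) and 0.00623 on log2(FPKM + 0.1)), a call lost with no filter (0.14). Those 2 filtered fits called 2134 and 644 of 5263 genes lower.

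PSAP, the precursor of the saposins that help enzymes degrade sphingolipids (chromosome 10, 71816298 to 71851251), was lower in IP. It had 33 and 21 counts in the IP pair beside 418 and 672 in the input pair, the largest numbers behind any of the 3 calls. Its level was 821 ± 133 normalised CPM in IP and 1420 ± 71.3 in input (SD, n = 2 each). Both IP libraries, at 727 and 915 CPM, lay below the inputs at 1471 and 1370. The log2 fold change was -0.83 ± 0.23 (edgeR adjusted p = 0.0261, from 4.26e-06 to 0.282 over 14 alternatives). The call was lost when SF3B6 IP 1 (adjusted p = 0.215), input 1 (0.282) or input 2 (0.137) was left out. It was also lost with a replicate block (0.105), in DESeq2 (0.246), with at least 20 counts required in 2 libraries (0.105) and in limma on log2(FPKM + 1) with no filter (0.14).

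GRN, progranulin, which travels to the lysosome with prosaposin and is cut into granulins there, showed no difference by the test. It had 36 and 24 counts in the IP pair beside 240 and 474 in the input pair. That was 793 and 1046 normalised CPM in IP, against 844 and 966 in input, with overlapping groups and a log2 fold change of -0.04 ± 0.22 (edgeR adjusted p = 0.963). The pooled ratio of GRN was 0.952 with an exact interval from 0.719 to 1.24, and that of PSAP was 0.561 with one from 0.419 to 0.738. These intervals overlapped slightly, and the difference between the 2 genes was not tested. NPC2, which hands cholesterol to NPC1, had 5 and 2 counts in the IP pair beside 40 and 45 in the input pair (-0.10 ± 0.60, edgeR adjusted p = 0.969).

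The deposited FPKM values, which divide counts by gene length, allow the genes to be ordered by level. PSAP led with 61.8 and 82.7 FPKM in input 1 and 2, CTSD followed with 41.1 and 59.6, and GRN came next with 32.1 and 52.8. The order was the same in both inputs, PSAP lay above CTSD even in its lower library, and the ranges of CTSD and GRN overlapped. CD63 stood next with 10.5 and 15.2 FPKM, and ASAH1 was the lowest with 0.18 and 0.36. Of the counts of all 37 genes CTSD held 23.3% and 23.4% in SF3B6 IP 1 and 2, against 18.9% and 18.5% in input 1 and 2. The leading 3 genes were CTSD, PSAP and GRN in SF3B6 IP 1 and in both inputs, whereas in SF3B6 IP 2 they were CTSD, IGF2R and GRN, with 56.1% of the counts. The length behind each FPKM value exceeded the RefSeq gene span for CTSA, CTSL and CTSZ. The order of all the genes depends on the gene model the authors used. CTSD had more input counts than PSAP, 1361 against 1090 in sum, with lengths of 5697 and 3189 bases behind their FPKM values. Across the 25 tested genes the log2 fold change had a Spearman correlation of -0.29 with gene span, -0.18 with that exonic length and 0.21 with input FPKM. These describe 25 genes measured in the same 4 libraries and rest on few IP counts.

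Other genes of the lysosome, taken from a list of 65 symbols that covers further enzymes, proton pump subunits, transporters and regulators, gave no call. The table held 63 of them and 23 were tested, with 0 higher and 0 lower by edgeR at an adjusted p of 0.05. At an unadjusted edgeR p under 0.05, 2 were lower, GGA2 and SMPD1, and 0 were higher. Of all tested genes 7.72% were lower and 7.93% higher at that cut. DESeq2 called 0 of the 23. Their median log2 fold change was -0.20, and 15 of 23 were below 0, where 53.4% of all tested genes were. SMPD1, acid sphingomyelinase, had 2 and 0 counts in the IP pair beside 47 and 73 in the input pair (log2 fold change -2.38 ± 0.79, edgeR adjusted p = 0.0883), a ratio of 0.189 with an exact interval from 0.0226 to 0.697. GGA2, an adaptor for mannose 6-phosphate receptors, had no count in either IP library beside 18 and 36 in the inputs. GGA2 did not pass (edgeR adjusted p = 0.112). Its bound from 3 IP counts was 1.59-fold lower in IP, and the exact interval of its pooled ratio, for counting error only, ran from 0 to 0.801. Among the most abundant were ABCA2, PLBD2 and TPCN1. ABCA2, a lipid transporter, had 19 and 9 counts in the IP pair beside 125 and 240 in the input pair (-0.20 ± 0.28, edgeR adjusted p = 0.820), while PLBD2 and TPCN1 were at -0.01 and -0.46 and did not pass (adjusted p = 0.994 and 0.628). The share of counts of all 63 averaged 0.247% ± 0.0380 in IP and 0.348% ± 0.0277 in input (SD, n = 2 each), a ratio of 0.710.

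The size of every value depended on the scale, since IP and input have no common absolute unit. The library totals behind the authors' FPKM values could be recovered, and gene counts made up only 7.32% and 6.07% of them in SF3B6 IP 1 and 2, against 15.0% and 20.4% in input 1 and 2. With those totals the median of the 25 genes was -2.15 and that of all tested genes -1.65, and 24 of the 25 were called lower beside 2098 of the 3668 tested genes. Relative to the median of all tested genes, 19 of the 25 were lower with TMM, upper quartile scaling and library totals, and 21 with the FPKM totals. The gap between the medians was -0.52 with TMM and -0.50 with the FPKM totals. In edgeR with no filter, where all 18276 genes were fitted, the gap was 0.05 and so of opposite sign. In limma on log2(FPKM + 1) with no filter it was -1.03.

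**Figure D4:**
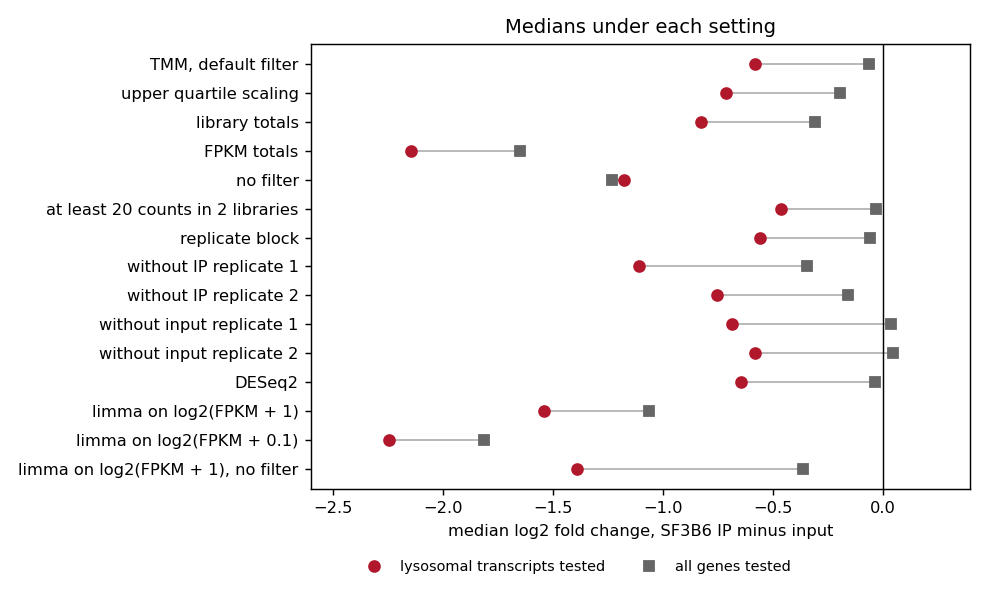
Median log2 fold change (SF3B6 IP minus input) of the lysosomal transcripts tested (circles) and of all genes tested (squares) under each setting. The lysosomal median lies left of the overall one in all settings shown except edgeR with no filter on low counts. There the medians are -1.18 and -1.23.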

How the data were processed

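RNA of SF3B6 IP and input was measured in 2 libraries each, which the series text calls biological replicates. The authors deposited read counts per gene, not normalized, and FPKM values of the same genes. The build hg38 and the tools HISAT2 and HOMER appear, without their tasks or versions, in the processing notes of the submitters. The counter, its strand setting and the treatment of multi-mapping reads are unknown (not given in the sources used here), so reads of overlapping or antisense genes and of pseudogene copies may be miscounted. The cell line entry of the labels differs in its last digit between samples, while all titles give MDA-MB-231. A chi-square statistic of 3.54 per degree of freedom over 886 genes separated the IP replicates, and one of 1.59 over 7338 genes the inputs, so none was a copy of another.

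Counts were tested with edgeR 4.0.16 (R 4.3.3): default expression filter, TMM (factors 0.968, 0.860, 1.06 and 1.13 for SF3B6 IP 1, SF3B6 IP 2, input 1 and input 2), quasi-likelihood test, group as the one term, Benjamini-Hochberg adjustment at 0.05. SE is the log2 fold change over the root of F. Count ratios use exact intervals, shares Wilson intervals. Alternatives were other scalings and filters, a replicate block, DESeq2 1.42.0, limma 3.58.1 on log2(FPKM + 1) or log2(FPKM + 0.1) of genes with FPKM of at least 1 in 2 libraries, and leaving out each library. FPKM totals were recovered from counts, FPKM and RefSeq lengths of 29 single-exon genes. Coordinates and promoters are from RefSeq GRCh38.p14.

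The members and lists were chosen with earlier results of these data known. Named are all 37 genes; of the other lysosomal genes those past the threshold and the 4 most abundant (none passed; 1 gene is not reported here; SMPD1 and GGA2 were added after their values were seen); and the cell line markers.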

Additional observations from a re-analysis of the deposited data

How the results depend on the processing

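The direction of the share, lower in IP for the 37 genes together, held with every denominator: log2 ratio -0.61 of gene counts, -0.29 of nuclear protein-coding counts and -2.02 of the FPKM library totals. None of the lysosomal genes was called higher under any setting. The number of the 37 called lower was 3, but 0 with DESeq2 and with limma on log2(FPKM + 1) without a filter, 1 with at least 20 counts in 2 libraries, 5 with no filter, 7 and 20 with limma on log2(FPKM + 0.1) and log2(FPKM + 1), and 24 with FPKM totals. Leaving out 1 library gave 0 to 4, with 0 without input 1, input 2 or SF3B6 IP 1. Of the other lysosomal genes 0 were lower, but 14 with FPKM totals, 1 and 13 with limma at pseudocounts 0.1 and 1, and 1 with no filter (0 to 0 without 1 library). Over all genes 99 were higher and 50 lower. DESeq2 called 37 and 2, FPKM totals 17 and 2098, library totals 56 and 90, no filter 50 and 163, limma 11 and 644 (pseudocount 0.1), 35 and 2134 (pseudocount 1) and 0 and 0 (no filter); at least 20 counts in 2 libraries left 19 lower. Leaving out 1 library gave 26 to 94 higher and 5 to 70 lower. The members' median of -0.58 was -2.15 with FPKM totals, -2.25, -1.54 and -1.39 with limma (pseudocount 0.1, pseudocount 1, no filter), -1.18 with no filter (where that of all genes was -1.23, against -0.06 in the filtered fit), and -1.11 to -0.58 without 1 library. No pairing by the labels' replicate numbers was seen (correlation of deviations 0.0004 over 3668 genes). With a median of 8 IP counts per gene, this check cannot show that the samples were unpaired. A replicate block moved the lower calls over all genes to 22 and left out PSAP.

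Genes near 0 changed sign. With at least 20 counts in 2 libraries CTSD was at 0.057, CTSZ 0.093, GRN 0.078, NEU1 0.11 and NPC2 0.018. DESeq2 gave GRN 0.0099 and NEU1 0.088, and the replicate block gave GRN 0.0023 and NEU1 0.012. With FPKM totals IDUA was at -1.30, IGF2R -1.15 and NAGLU -1.56; with limma at pseudocount 0.1 they were at -1.47, -1.14 and -1.67, at pseudocount 1, filtered or not, -1.09, -0.87 and -1.33, and with no filter -0.17, -0.086 and -0.43. NAGLU was at -0.20 with library totals and -0.089 with upper quartile scaling. Without 1 library the log2 fold change ran from -1.11 to 0.020 for CTSL, -0.70 to 0.071 for CTSZ, -0.30 to 0.12 for GRN, -1.84 to 0.091 for GUSB, -0.79 to 0.51 for IDUA, -0.36 to 0.91 for IGF2R, -0.77 to 0.18 for NAGLU and -0.78 to 0.57 for NEU1. The cause of these changes was not tested. For the 12 genes that were not tested, 1.41 to 4.24 IP counts would have fallen at the inputs' rate. Low depth and a low level of these genes cannot be told apart here.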
